A study of Mus musculus with 160 samples.

Results

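The cytosolic ribosomal protein genes, which encode the protein part of the ribosomes that translate nuclear mRNAs, were followed through 8 cell populations sorted from the aorta-gonads-mesonephros (AGM) region of mouse embryos. The members were the protein-coding genes whose symbol begins with Rpl or Rps followed by a number, together with Rplp0, Rplp1, Rplp2 and Rpsa. 83 of the 46078 gene rows of the count table met this rule, of which 31 encode proteins of the small subunit, 43 proteins of the large subunit, 3 the stalk of the large subunit (Rplp0, Rplp1, Rplp2), and 6 are retained or tissue-restricted paralogues (Rpl22l1, Rps27l, Rpl39l, Rpl3l, Rpl10l, Rpl7l1). The choice of genes used their names and not their expression. All embryos were of the genotype Gata3-GFP +/-, so the GFP+ and the GFP- cells alike carry 1 reporter allele of Gata3. Endothelial cells (ECs, gated Cdh5+ CD41- CD45-) and haematopoietic cells (HCs, gated CD41+ CD45+) were from E10.5, and mesenchymal cells (MCs, gated Pdgfrb+) and cells of the sympathetic nervous system (SNS, gated Ngfr+) were from E11.5, each split into Gata3-GFP+ and Gata3-GFP-. Each of the 160 libraries was made from a pool of 20 cells, 20 pools for each population, with ERCC RNAs spiked in. The pools were drawn from sorted cells of several embryos, and the table does not tie a pool to its embryos, so the p-values below measure the spread between pools, which may in part be technical. Fewer cells of a type in a pool and less RNA per cell cannot be told apart in such pools.

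Ribosomal proteins are made in near equal amounts and assembled with ribosomal RNA in the nucleolus, and their mRNAs are among the most abundant of growing cells. Most of these mRNAs begin with a C and a run of pyrimidines, the terminal oligopyrimidine (TOP) tract, through which mTORC1 and LARP1 control their translation and stability, and Myc is known to raise the output of the ribosome-making genes. Loss of 1 copy of many of these genes, RPS19 first among them, causes Diamond-Blackfan anaemia in humans, and mice deficient in certain ribosomal proteins have defects of blood formation or body patterning.

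Start-site sequences are shown for 10 members, namely 4 whose GFP+ and GFP- pools did not overlap in ECs (Rps2, Rpl14, Rplp2, Rpl38), the paralogue pairs Rps27/Rps27l and Rpl39/Rpl39l, and Rplp0 and Rpsa, which lack a run by the rule used here. The pools of Rplp0, Rpsa and Rps27l did not overlap in ECs either. They are RefSeq sequences of build GRCm38.p6, each from 60 bases before to 20 bases from the transcription start, written 5′ to 3′ along the gene's strand. Capitals mark a run of at least 5 pyrimidines that begins with C within 10 bases of the start. Of the 2 starts listed for Rps27l the first is printed.
Rps2, chr17:24720003-24720082, plus strand: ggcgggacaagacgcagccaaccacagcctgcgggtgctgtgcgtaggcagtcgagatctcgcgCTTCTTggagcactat
Rpl14, chr9:120571457-120571536, plus strand: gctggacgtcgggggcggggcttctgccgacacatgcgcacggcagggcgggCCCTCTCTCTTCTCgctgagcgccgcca
Rplp2, chr7:141447591-141447670, plus strand: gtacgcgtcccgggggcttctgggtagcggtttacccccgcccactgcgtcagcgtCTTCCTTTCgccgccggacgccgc
Rpl38, chr11:114668520-114668599, plus strand: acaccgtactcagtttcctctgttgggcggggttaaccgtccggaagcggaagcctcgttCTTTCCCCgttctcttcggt
Rps27, chr3:90213629-90213708, minus strand: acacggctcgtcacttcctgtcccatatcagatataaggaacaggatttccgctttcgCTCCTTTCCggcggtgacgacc
Rps27l, chr9:66946026-66946105, plus strand: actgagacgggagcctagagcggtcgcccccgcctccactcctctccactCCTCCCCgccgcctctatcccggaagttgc
Rpl39, chrX:37085203-37085282, minus strand: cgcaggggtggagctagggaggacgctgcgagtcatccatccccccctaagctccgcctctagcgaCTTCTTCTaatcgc
Rpl39l, chr16:10170168-10170247, plus strand: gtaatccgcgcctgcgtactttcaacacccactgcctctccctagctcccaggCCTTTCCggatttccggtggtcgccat
Rplp0, chr5:115559407-115559486, plus strand: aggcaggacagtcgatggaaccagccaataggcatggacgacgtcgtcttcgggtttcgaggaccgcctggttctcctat
Rpsa, chr9:120127706-120127785, plus strand: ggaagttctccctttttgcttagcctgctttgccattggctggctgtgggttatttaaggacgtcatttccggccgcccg
RefSeq starts were found for 63 of the 83 members. Rplp1 and Rps20 were among those without one. Such a run of at least 5 pyrimidines stood near the start in 39 of the 63 (61.9%), against 34.4% of 27025 genes and 44.9% of 69 genes for mitochondrial ribosomal proteins. Runs of at least 8, as in Rpl14 and Rplp2, were found in 24 (38.1%), against 9.43% of all genes. In the window from 250 bases before to 50 bases after the start, searched on both strands, the ETS motif CCGGAAG was in 26 (41.3%) of the members, in 9.93% of all genes and in 37.7% of the genes for mitochondrial ribosomal proteins, the E-box CACGTG in 6 (9.52%) and 8.09%, and the GATA motif AGATAA in 5 (7.94%) and 12.7%. These are matches of letters and were not tested as binding sites.

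153 of the 160 pools passed the quality limits, with 1400824 to 16004756 counts on genes. Before any result, 12 pools of E11.5 have to be named, 3 in each of the 4 populations, because their markers went against their label. In file order they were columns 18 to 20 of each of these populations. In the 3 pools labelled Gata3-GFP- MC, the summed level of the mesenchymal markers was 98.4 to 221 CPM (counts scaled to a common library size) and that of the sympathetic and neural crest markers 2790 to 4813 CPM, where the other 14 pools of that label had 2888 to 4756 and 18.4 to 135 CPM. The 3 pools labelled Gata3-GFP+ SNS had 2944 to 3059 CPM of mesenchymal and 35.1 to 71.3 CPM of sympathetic and crest markers, and the 3 labelled Gata3-GFP- SNS had 4231 to 5689 and 64.3 to 118 CPM. The 3 labelled Gata3-GFP+ MC had 536 to 754 and 1564 to 2253 CPM. Both ranges were near those of the 16 Gata3-GFP- SNS pools with markers of their label (412 to 987 and 1302 to 2050 CPM). Whether pools were exchanged between labels was not tested. Gata3 itself, which checks the sort, ranged from 28.5 to 174 CPM in GFP+ against 4.37 to 29.6 CPM in GFP- ECs, and from 12.7 to 149 against 1.78 to 12.9 CPM in HCs. Among the MC pools with the markers of their label the medians of Gata3 were 35.9 and 8.96 CPM, but the 3 pools labelled Gata3-GFP- MC that carried sympathetic markers had 123 to 395 CPM, and the 3 labelled Gata3-GFP+ SNS that carried mesenchymal markers 9.96 to 24.3 CPM. In 3 pools of E10.5 (1 of the GFP+ ECs and 1 from each class of HCs), markers of another lineage summed to over 1000 CPM. The pools were kept under their labels. Some of the results that rest on them are given with and without them, and the others hold all passing pools.

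The members took 2.64% to 6.19% of all gene counts in the E10.5 ECs, and the GFP+ and the GFP- pools did not overlap. The share in the Gata3-GFP+ class was 3.29% ± 0.28 (SD, n = 19; lowest 2.64%, median 3.31%, highest 3.76%) and in the Gata3-GFP- class 4.97% ± 0.39 (n = 20; 4.52%, 4.98%, 6.19%). Gata3-GFP+ HCs gave 3.94% ± 0.45 (n = 20; 3.15%, 4.01%, 4.93%) and Gata3-GFP- HCs 4.97% ± 0.33 (n = 20; 4.52%, 4.86%, 5.56%), with 18 of the 20 GFP+ pools below every GFP- pool. The GFP- pools of both cell types thus had the same mean share, and the mean of the GFP+ pools was lower in each. At E11.5 the groups overlapped, with 3.42% ± 0.21 (n = 20) in Gata3-GFP+ MCs, 3.50% ± 0.20 (n = 17) in Gata3-GFP- MCs, 3.74% ± 0.28 (n = 18) in Gata3-GFP+ SNS pools and 3.94% ± 0.40 (n = 19) in Gata3-GFP- SNS pools. Without the pools that went against their label these means were 3.38%, 3.52%, 3.76% and 4.03%, and the groups still overlapped. Counted against the spike-in, which does not depend on the other genes of a pool, the members gave 2.12 ± 0.76 counts per ERCC count in GFP+ against 5.15 ± 1.22 in GFP- ECs, and 4.44 ± 1.17 and 5.66 ± 1.13 in the HCs. The balance of the subunits was close throughout, since the mean log2 ratio of small to large subunit counts lay between -0.29 and -0.25 in all 8 populations.

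**Figure D1:**
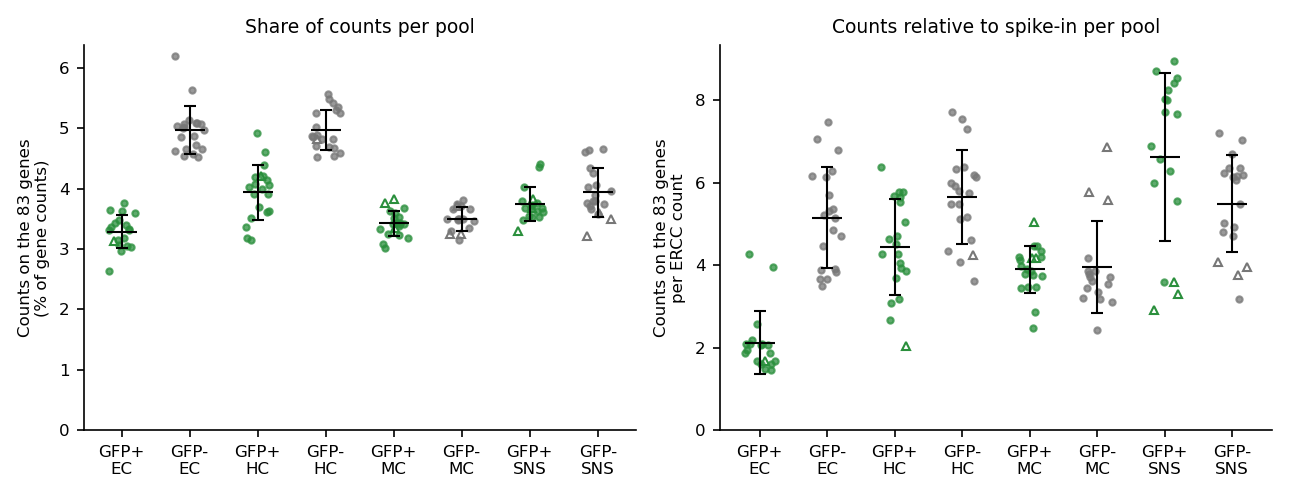
Counts on the 83 ribosomal protein genes in each pool as percent of gene counts (left) and per ERCC count (right), for the 8 populations. Points are pools (green GFP+, grey GFP-), open triangles are the pools with markers of another cell type, and bars are the mean ± SD. In ECs all 19 GFP+ pools lie below all 20 GFP- pools on the left, whereas the MC and SNS pools overlap.

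Levels of single members spanned a wide range in each population, with a median over the 83 genes of 230 CPM in the GFP+ and 338 CPM in the GFP- class of ECs. Per kb of transcript, Rpl41, which encodes a very small basic protein, ranked first in all 8 populations, from 2680 CPM per kb in Gata3-GFP+ ECs to 4025 CPM per kb in Gata3-GFP- HCs. Rplp1 followed within the first 4 places everywhere. The lowest were the paralogues Rpl3l and Rpl10l, known from muscle and testis, which reached at most 12 and 2 counts in any pool and did not pass the filter on low counts in any comparison. Rpl39l passed the filter on low counts only in the fits that held HCs. Rpl41 was named after its values were seen.

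In ECs nearly the whole group was lower in the Gata3-GFP+ pools. Of the 80 members tested by edgeR's quasi-likelihood test (adjusted p under 0.01 over all genes and a log2 fold change beyond 0.1), 79 fell and none rose, against 16.7% of the 15073 genes called lower and 19.5% called higher. Their median log2 fold change was -0.58, where the median of all genes was 0.10. The small subunit had 30 of 31 members called lower (median -0.57), the large subunit 43 of 43 (median -0.56) and the stalk 3 of 3 (median -0.85). In 31 of the 80 members every GFP+ pool lay below every GFP- pool, against 1.35% of all genes tested. At ERCC scaling 80 of 80 fell (37.9% of all genes did, and 6.35% rose), with a median of -1.27. The median of all genes moved to -0.60 there, so that relative to it the members stood at -0.68 under either scaling. Without the EC pool with other markers 79 fell again (17.2% of all genes fell and 18.6% rose).

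Rps2, a small subunit protein at the mRNA entry side, showed the largest fall among the abundant members. The lowest, median and highest GFP+ pools held 167, 265 and 390 CPM of it, and the GFP- pools 521, 598 and 698 CPM. The groups did not overlap, and the log2 fold change was -1.16 ± 0.07 (SE, adjusted p = 6.82e-18). Rpl12, near the base of the stalk, had 39.3, 60.2 and 85.8 against 81.8, 113 and 152 CPM (log2 fold change -0.95 ± 0.10, adjusted p = 3.09e-11), with the highest GFP+ pools inside the GFP- range. Rpl23a had the largest fitted change of all (-1.32 ± 0.28, adjusted p = 0.000113) at a median of 2.09 against 5.43 CPM, but 62.3% of its exon bases lie under exons of other genes and only 6 of 19 GFP+ pools had at least 10 counts.

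The stalk proteins, which recruit the elongation factors, fell together. Rplp1 had 679, 828 and 1014 CPM in Gata3-GFP+ ECs against 1269, 1498 and 1881 CPM in Gata3-GFP- ECs (log2 fold change -0.91 ± 0.05, adjusted p = 2.60e-18). Rplp0 had 746, 1448 and 1727 against 2006, 2421 and 3573 CPM (-0.85 ± 0.07, adjusted p = 1.45e-13), and Rplp2 381, 508 and 607 against 722, 820 and 1104 CPM (-0.73 ± 0.06, adjusted p = 1.04e-14). In none of the 3 did the GFP+ and GFP- pools overlap. Rpsa, a small subunit protein also known as the laminin receptor precursor, behaved alike with 427, 561 and 648 against 814, 1032 and 1371 CPM (-0.89 ± 0.06, adjusted p = 4.11e-17).

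Rpl38, whose loss alters the axial skeleton in mice, had 148, 182 and 243 against 244, 283 and 363 CPM in the ECs (-0.64 ± 0.07, adjusted p = 3.83e-10). Rpl10a had 87.9, 135 and 169 against 181, 207 and 246 CPM (-0.71 ± 0.07, adjusted p = 3.80e-12). For both genes the GFP+ pools lay below all GFP- pools. At the other end, Rpl26, named here after its values were seen, had the smallest fall that was called (-0.19 ± 0.05, adjusted p = 0.0015), with 426, 571 and 646 against 558, 630 and 821 CPM and overlapping pools. Rps27 alone was not called, at 170, 211 and 317 against 149, 182 and 254 CPM (0.18 ± 0.07, adjusted p = 0.0345). Its sign turned with the scaling, to -0.48 under ERCC scaling.

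**Figure D2:**
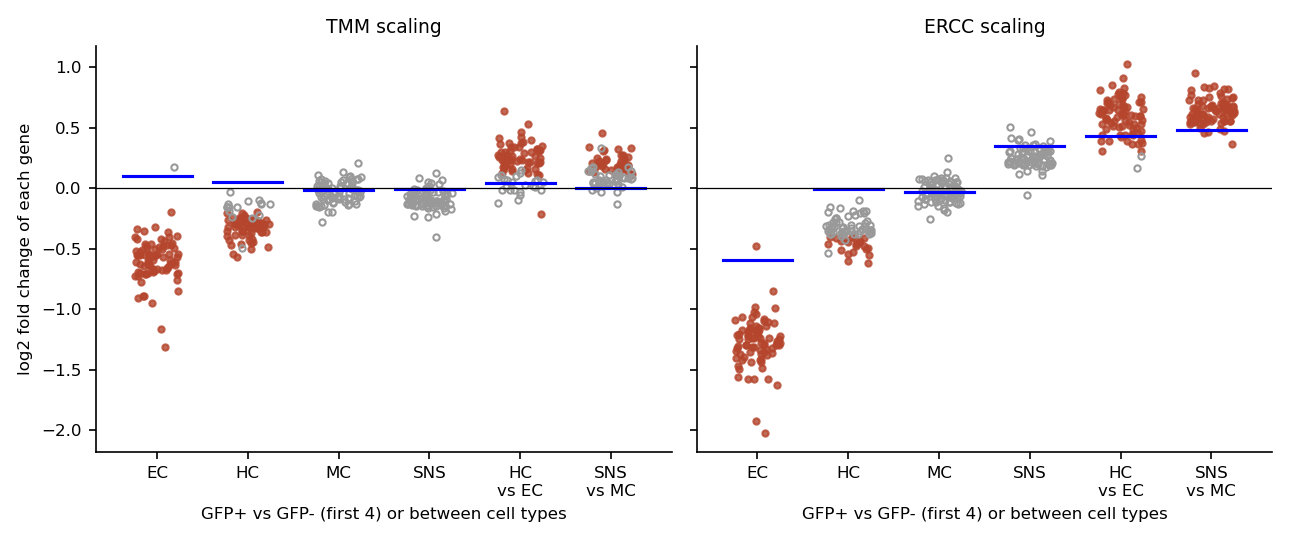
Log2 fold change of each tested member, GFP+ over GFP- in the 4 cell types and between cell types, under TMM scaling (left) and ERCC scaling (right). Each circle is 1 gene, filled red where called (adjusted p under 0.01) and open grey where not, the blue line is the median of all genes tested, and Rpl39l is left out. In ECs and HCs the members lie below the blue line under both scalings, with medians of -0.58 and -0.30 on the left, except Rps27 in ECs, which lies above it.

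**Figure D3:**
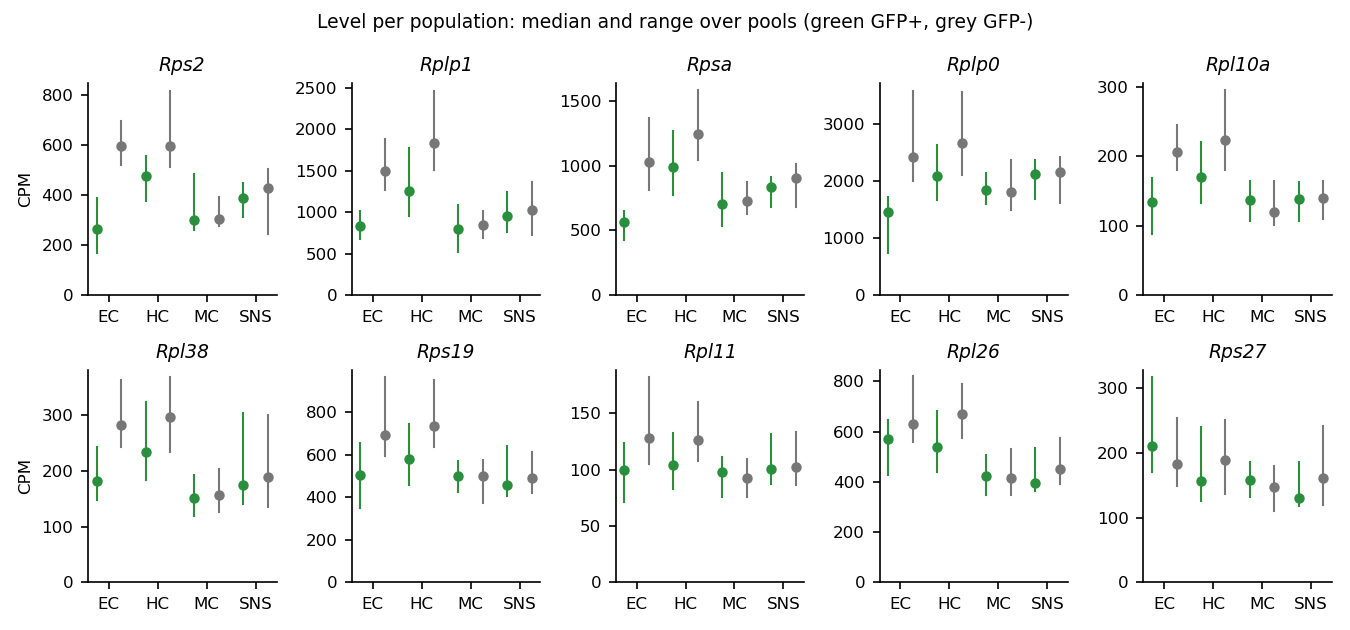
Level of 10 members in the 8 populations in CPM, with the median (circle) and the lowest to highest pool (line) for GFP+ (green) and GFP- (grey) pools. Rps2 in ECs has a median of 265 against 598 CPM without overlap, whereas Rpl26 and Rps27 overlap.

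In HCs the members were lower in the Gata3-GFP+ pools as well, by less. 64 of 81 fell and none rose, against 9.51% of 16200 genes called lower and 17.1% called higher, and the median was -0.30 where that of all genes was 0.05. The small subunit had 27 of 31 called lower, the large subunit 32 of 43 and the stalk 3 of 3. Rps12 showed the largest fall, with 38.9, 64.2 and 99.6 CPM in Gata3-GFP+ HCs against 65.4, 96.1 and 132 CPM in Gata3-GFP- HCs (log2 fold change -0.57 ± 0.09, adjusted p = 1.83e-06). Rplp1 followed with 958, 1259 and 1777 against 1505, 1838 and 2462 CPM (-0.55 ± 0.06, adjusted p = 7.73e-10), and then Rps27a, which is made as a fusion with ubiquitin, with 70.7, 95.7 and 152 against 119, 138 and 174 CPM (-0.50 ± 0.08, adjusted p = 2.18e-06). In all of them the ranges overlapped. Rpl14 was the only member of the 81 whose GFP+ pools all lay below the GFP- pools (452, 593 and 699 against 705, 781 and 988 CPM), which held for 0.0432% of all genes, and it was named after its values were seen.

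Among the HC members not called, Rpl7, Rpl41, Rps4x and Rpl13a were abundant and had log2 differences of -0.16 to -0.13 with adjusted p of 0.016 to 0.0333, and Rpl6 had -0.03 ± 0.06 (adjusted p = 0.731). Under ERCC scaling 23 members fell (5.84% of all genes did, and 13% rose), with the members' median at -0.36 and that of all genes at -0.01, and the difference between both medians was -0.35 under either scaling. Without the 2 HC pools with other markers 68 fell (10.2% of all genes fell and 15.6% rose). The make-up of these pools differed too. The 6 summed macrophage markers had a lowest, median and highest value of 37.9, 1755 and 4966 CPM in Gata3-GFP+ HCs and 1905, 2769 and 3853 CPM in Gata3-GFP- HCs, and the mesenchymal markers 18.4, 369 and 978 against 3.37, 42.7 and 175 CPM. In ECs the 9 endothelial markers stood at 6793, 7912 and 9124 CPM in the GFP+ and 4558, 5194 and 6385 CPM in the GFP- pools, and the sympathetic list, of which Phox2a, Hand2 and Th, among others, had a median under 1 CPM in GFP+ ECs, at 269, 382 and 741 against 15.1, 45.5 and 147 CPM. The 8 haematopoietic markers stood at 206, 269 and 497 CPM in GFP+ ECs, above every GFP- pool of ECs (median 85.5 CPM), while HCs had 1619, 2092 and 3524 against 2829, 3444 and 4161 CPM. Epithelial markers (6 genes) had 22.3, 59.5 and 124 against 0.349, 2.51 and 8.88 CPM in ECs, with Epcam and Cdh1 under a median of 1 CPM, and the mitochondrial share of the EC pools had a median of 7.54% against 6.40%. The part of these differences in the fall of the ribosomal protein genes was not tested.

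HCs and ECs were then compared directly. Over both GFP classes, 57 of 81 members were higher and 1 was lower in HCs (26.7% and 24% of 17851 genes), with a median of 0.21. Between the GFP- pools alone 14 were higher and 2 lower (18.2% and 20.1% of all genes) with a median of 0.05, and under ERCC scaling 3 were higher and 0 lower (16.7% and 15.9% of all genes). With library totals, for which no share of all genes is given here, 9 were higher and 9 lower, with a median of -0.01. Between the GFP+ pools alone 66 were higher and 1 lower (24.8% and 18.6%), with a median of 0.32. These last comparisons were added after the data were seen, and they share their pools with the GFP comparisons above. Rpsa rose most among the abundant members (0.53 ± 0.04, adjusted p = 2.60e-22), and Rplp1 came next (0.46 ± 0.04, adjusted p = 2.65e-18). Rpl23a, with few counts, had 0.64 ± 0.16 (adjusted p = 0.000249). Rps27 was the 1 member that fell (-0.22 ± 0.05, adjusted p = 0.00015), and it turned to 0.17 under ERCC scaling, where 79 members were higher and 0 lower (41.7% and 14.1% of all genes) and the median of all genes moved from 0.04 to 0.43.

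The difference between both GFP effects was tested as an interaction. In 42 of 81 members the log2 fold change of GFP+ over GFP- was higher in HCs than in ECs and in 1 it was lower (14.2% and 8.61% of all genes), with a median difference of 0.29 where all genes had 0.11. Under ERCC scaling 77 were higher and 0 lower (29.6% and 2.92% of all genes), with medians of 0.91 and 0.75. Among the members called, Rps2 differed most (0.80 ± 0.09, adjusted p = 6.59e-12), followed by Rpl7l1 (0.59 ± 0.14, adjusted p = 0.000749), a paralogue known from the nucleolus, Rpsa (0.56 ± 0.07, adjusted p = 2.72e-09) and Rpl12 (0.56 ± 0.12, adjusted p = 0.000152). Rps27 had -0.44 ± 0.10 (adjusted p = 0.000334), which turned to 0.15 under ERCC scaling and was not called there (adjusted p = 0.563). Of the genes mutated in Diamond-Blackfan anaemia, Rps19 (0.12 ± 0.08, adjusted p = 0.228), Rpl5 (0.21 ± 0.09, adjusted p = 0.0531) and Rpl11 (0.15 ± 0.08, adjusted p = 0.164) did not pass the test of a difference.

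At E11.5 no member was called between GFP+ and GFP- pools by edgeR, either in MCs, where 2.1% of 16026 genes were called lower and 2.2% higher, or in SNS pools, where 1.85% of 16143 genes were called lower and 1.97% higher. The members' medians were -0.03 and -0.09. In the same fits Gata3, the gene of the sort, was not called in MCs (-0.66 ± 0.52, adjusted p = 0.495). Its means there were 37.6 CPM in GFP+ and 59.4 CPM in GFP- pools, so over all MC pools the check of the sort failed. In SNS pools Gata3 was higher in GFP+ (1.85 ± 0.31, adjusted p = 0.000117). At an unadjusted p under 0.05 there were 7 members in MCs and 24 in SNS pools, and DESeq2's Wald test called 0 and 2. The shares of all genes under these rules are not given beside them. Without the pools that went against their label, 3 members fell in MCs (4.79% of all genes did, and 5.47% rose), among them Rps27l (-0.42 ± 0.07, adjusted p = 3.81e-05) and Rpl14 (-0.18). The part of the members that fell in MCs was no larger than that of all genes. In SNS pools 7 fell (5.36% of all genes did, and 4.9% rose), among them Rpsa (-0.15 ± 0.04, adjusted p = 0.00366), Rps4x (-0.15), Rpl7 (-0.12) and Rpl9, Rpl18, Rpl13a and Rpl8. The sign of the members' median in SNS pools rested on the scaling. Under ERCC scaling it was 0.25 with that of all genes at 0.35, and no member was called (1.05% of all genes were lower and 5.01% higher). There 22 members had an unadjusted p under 0.05, with no share of all genes given beside that count. Relative to the median of all genes the members stood at -0.09 under TMM and -0.10 under ERCC scaling, so that side did not change. Without the pools that went against their label, ERCC scaling called 14 members higher and none lower, opposite in sign to the 7 called lower in the same pools above. All genes shifted upward there too (25.8% were higher and 2.34% lower). Rps2, for instance, had 260, 301 and 487 CPM in Gata3-GFP+ MCs and 278, 305 and 392 CPM in Gata3-GFP- MCs, with ranges that overlapped throughout.

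Between SNS and MC pools, 39 of 80 members were higher in SNS and none lower (11.4% and 12% of 17733 genes), with a median of 0.14 where all genes had 0.00, and without the 12 pools 40 were higher and 1 lower (20.5% and 19.7%). Rpl27 rose most (0.46 ± 0.06, adjusted p = 6.70e-08), with 70.9, 112 and 150 CPM in Gata3-GFP+ SNS and 51.8, 76.3 and 101 CPM in Gata3-GFP+ MC pools. Rps27l (0.34 ± 0.07, adjusted p = 8.07e-05) and Rps2 (0.33 ± 0.05, adjusted p = 4.29e-07) followed, and without the 12 pools the values were 0.59 for Rpl27, 0.42 for Rps27l and 0.45 for Rps2. The member that was then lower was Rpl10 (-0.20 ± 0.06, adjusted p = 0.00346), a late-joining large subunit protein, which was 0.52 in the same pools under ERCC scaling. All 80 members were higher in SNS pools under ERCC scaling (43.2% of all genes were, and 5.22% were lower), with the members' median at 0.64 and that of all genes at 0.48. The GFP effect differed between SNS and MC pools in 3 members, all lower in SNS (4.51% of all genes were lower and 5.15% higher). Of these, Rpl17 had -0.63 ± 0.14 (adjusted p = 0.000724), Rps27 had -0.35 ± 0.10 (adjusted p = 0.00923) and Rpl9 -0.34 ± 0.09 (adjusted p = 0.00546). The 3 were no larger a share of the 80 members than the 4.51% of all genes. This fit held the 12 pools that went against their label. Under ERCC scaling Rpl17 had -0.31, Rps27 0.01 and Rpl9 0.04, and no member was called (2.53% of all genes were lower and 7.93% higher). There 19 members had an unadjusted p under 0.05, for which no share of all genes is given.

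Paralogues did not always move with their partners. Rps27l, a p53-inducible paralogue of Rps27, had 219, 330 and 426 against 480, 566 and 916 CPM in ECs (-0.89 ± 0.08, adjusted p = 1.89e-12), while Rps27 was not called. The mean log2 ratio of Rps27l to Rps27 counts was therefore 0.59 ± 0.30 (SD, n = 19) against 1.65 ± 0.21 (n = 20), which gives -1.07 (adjusted p = 0.00032 over 16 permutation tests, two-sided, 100000 resamples each; the unadjusted p of 2e-05 is the smallest they can give). This ratio does not depend on the scaling. In HCs it was 1.64 and 1.81 (difference -0.17, adjusted p = 0.0701). In MCs it was 0.79 and 1.19 (-0.40, adjusted p = 0.000853), and -0.54 without the pools that went against their label. In SNS pools the sign was opposite (0.29, adjusted p = 0.0109), with 0.19 and an adjusted p of 0.0713 without those pools. Of the read-length windows of Rps27, 98.2% also occur in transcripts of 2 other genes, so what is counted under Rps27 is uncertain. No window of Rps27l is shared.

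Rpl22l1, which can stand in for Rpl22, fell less than Rpl22 in ECs. Rpl22 had 321, 401 and 474 against 485, 601 and 816 CPM (-0.66 ± 0.05, adjusted p = 1.42e-13) and Rpl22l1 79.0, 101 and 136 against 98.2, 132 and 224 CPM (-0.41 ± 0.08, adjusted p = 6.65e-05). The log2 ratio of Rpl22l1 to Rpl22 was -1.94 in Gata3-GFP+ and -2.20 in Gata3-GFP- ECs (difference 0.26, adjusted p = 0.00064), and the 3 other cell types gave differences of -0.06 to 0.14 with adjusted p of 0.0769 to 0.839. No ratio of Rpl7l1 to Rpl7 or of Rpl39l to Rpl39 passed the test. Rpl39l, a paralogue best known from the testis, was nearly absent outside the HCs, with medians of 0 to 0.318 CPM. In Gata3-GFP- HCs it had 0, 3.24 and 41.0 CPM and in Gata3-GFP+ HCs 0, 0.613 and 18.8 CPM, so a few pools held most of its counts. It was higher in HCs than in ECs (3.41 ± 0.58, adjusted p = 3.41e-07) and not called between the GFP classes of HCs (-1.93 ± 0.80, adjusted p = 0.0524). The median of Rpl39 itself was 711 CPM in the GFP- class of HCs. Rps4l, listed in the annotation as not protein-coding and therefore no member, was higher in Gata3-GFP+ HCs (0.32 ± 0.10, adjusted p = 0.00718, and 0.140 under ERCC scaling) where Rps4x was not called (-0.16 ± 0.06, adjusted p = 0.0273).

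**Figure D4:**
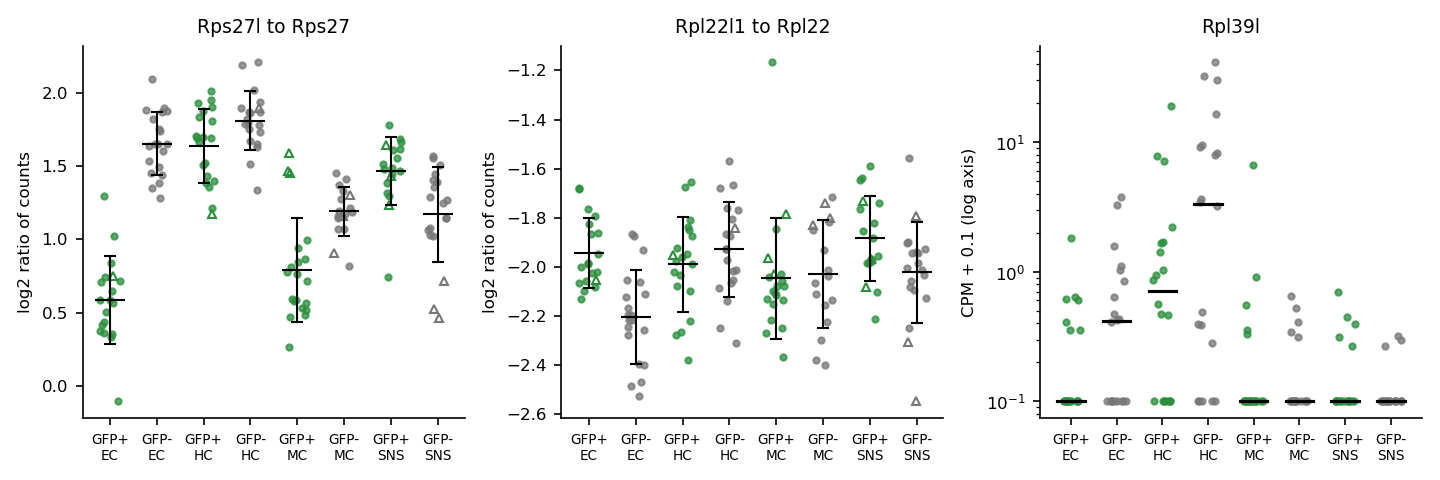
Log2 ratio of Rps27l to Rps27 counts and of Rpl22l1 to Rpl22 counts in each pool, and the level of Rpl39l in CPM + 0.1 on a log axis, for the 8 populations. Points are pools (green GFP+, grey GFP-), open triangles in the first 2 panels the pools with markers of another cell type, bars the mean ± SD and, for Rpl39l, the median. The Rps27l to Rps27 ratio averages 0.59 in GFP+ and 1.65 in GFP- ECs, and Rpl39l is above 6 CPM in HC pools and 1 MC pool alone.

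The genes mutated in Diamond-Blackfan anaemia moved with the rest. In ECs 19 of 20 fell (median -0.54) and in HCs 17 of 20 (median -0.28), against 16.7% and 9.51% of all genes. Rps19, a small subunit protein needed for maturation of its ribosomal RNA, had 350, 502 and 657 against 595, 690 and 966 CPM in ECs (-0.50 ± 0.06, adjusted p = 2.12e-09) and 459, 578 and 745 against 634, 734 and 952 CPM in HCs (-0.37 ± 0.05, adjusted p = 1.75e-07). Rpl5 and Rpl11, which bind Mdm2 when ribosome assembly fails, fell by 0.53 and 0.42 on the log2 scale in ECs (adjusted p = 2.57e-09 and 6.00e-07) and by 0.32 and 0.26 in HCs (adjusted p = 5.54e-05 and 0.000716).

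Other genes of the ribosome were lower in the same pools. Fau, which encodes a small subunit protein fused to a ubiquitin-like protein, and Rack1, a scaffold on the small subunit, fell in ECs (-0.33 ± 0.07 and -0.64 ± 0.04) and in HCs (-0.42 ± 0.06 and -0.38 ± 0.05). Of 39 genes for ribosome biogenesis 25 fell and none rose in ECs (median -0.80), and 23 fell and none rose in HCs (median -0.56). Of all genes tested, 16.7% fell and 19.5% rose in ECs, and 9.51% fell and 17.1% rose in HCs. The nucleolar proteins Ncl (-1.18 ± 0.08 in ECs, -0.58 ± 0.08 in HCs), Npm1 (-1.08 ± 0.07, -0.43 ± 0.07) and Fbl (-1.18 ± 0.15, -0.45 ± 0.12) were lower in both cell types, except that the call of Fbl in HCs was lost under ERCC scaling (adjusted p = 0.0308). In SNS against MC pools 29 of the 39 rose and none fell (median 0.50), where 11.4% of all genes rose and 12% fell.

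Translation factors and other genes with TOP mRNAs had smaller medians. In ECs 16 of 23 were lower and 1 higher (median -0.38), and in HCs 13 were lower and none higher (median -0.19). For this list and the next, the shares of all genes were 16.7% lower and 19.5% higher in ECs, and 9.51% and 17.1% in HCs. Eef1a1, the elongation factor that delivers tRNAs, was lower in ECs (-0.38 ± 0.08) and not called in HCs (-0.09 ± 0.05, adjusted p = 0.152). Eef1b2 and Eef2 were lower in both (-0.46 ± 0.05 and -0.31 ± 0.07 in ECs, -0.18 ± 0.05 and -0.19 ± 0.06 in HCs), though in HCs not under ERCC scaling (adjusted p = 0.109 and 0.160). Tpt1, a classical TOP mRNA, was called in neither (-0.10 ± 0.06, adjusted p = 0.152 in ECs, and 0.05 ± 0.06, adjusted p = 0.581 in HCs), and under ERCC scaling it was lower in ECs (-0.76, adjusted p = 5.77e-06). Of 77 tested genes for mitochondrial ribosomal proteins, which are encoded in the nucleus and serve a separate ribosome, 47 fell and 1 rose in ECs (median -0.44), and 16 fell and 2 rose in HCs (median -0.19).

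The regulators of ribosome output did not share 1 direction. Of 21 genes of mTORC1, LARP1 and Myc control, 5 fell and 2 rose in ECs (median 0.09) and 3 fell and 3 rose in HCs (median -0.07). Of all genes tested, 16.7% fell and 19.5% rose in ECs, and 9.51% fell and 17.1% rose in HCs, so these counts do not set the list apart. Myc had 5.18, 16.2 and 64.5 CPM in Gata3-GFP+ ECs against 37.2, 67.0 and 114 CPM in Gata3-GFP- ECs (-1.85 ± 0.21, adjusted p = 1.04e-09), and 2.66, 39.3 and 97.4 against 41.7, 94.0 and 216 CPM in HCs (-1.24 ± 0.24, adjusted p = 5.23e-05). Mycn, its relative on the same list, named after its values were seen, was higher in GFP+ HCs with 28.7 ± 16.9 against 3.24 ± 4.07 CPM (mean ± SD, n = 20 each, log2 fold change 3.12 ± 0.52, adjusted p = 6.46e-06). In ECs Mycn was not called with TMM scaling (-1.04 ± 0.38, adjusted p = 0.0241) but was called lower under ERCC scaling (-1.75 ± 0.42, adjusted p = 0.000512). Larp1 was not called in ECs (0.04 ± 0.19, adjusted p = 0.864, and -0.50 under ERCC scaling) and was lower in Gata3-GFP+ HCs (-0.81 ± 0.15, adjusted p = 5.36e-05). Whether Myc or Larp1 had a part in the levels of the ribosomal protein genes was not tested.

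**Figure D5:**
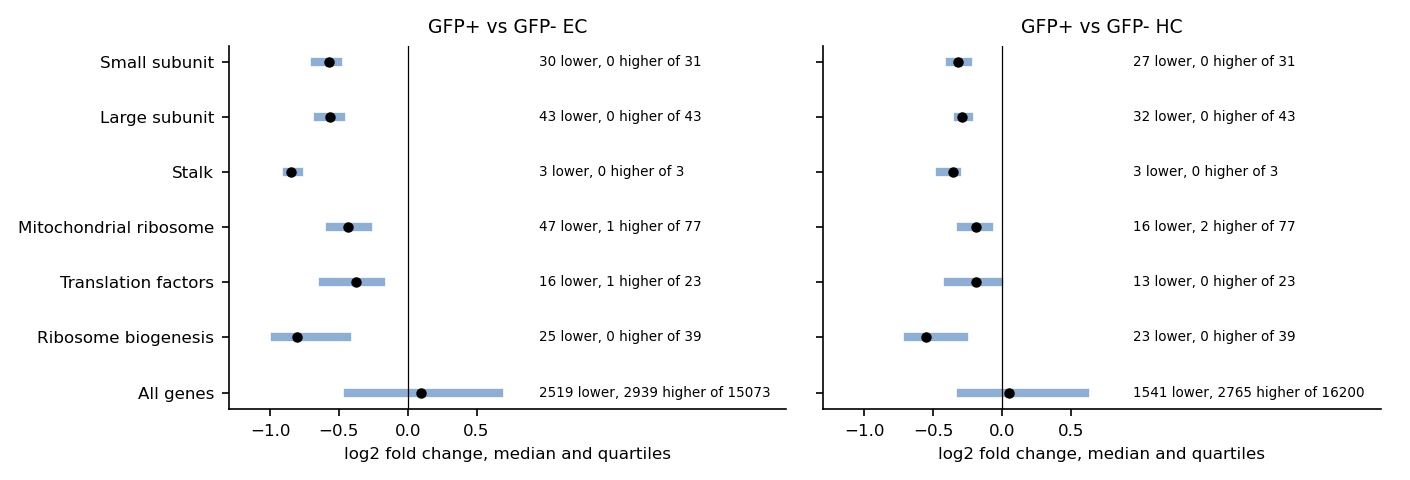
Median (dot) and quartiles (bar) of the log2 fold change of GFP+ over GFP- for gene lists of the ribosome in ECs (left) and HCs (right), with the number of genes called lower and higher of those tested. All lists drawn lie below the median of all genes, and ribosome biogenesis has medians of -0.80 and -0.56.

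Counting can distort these genes, because many have processed copies elsewhere in the genome. A stretch of read length was taken as shared where it also occurs in a transcript of another gene, which held for a median of 30.7% of the stretches of a member. Levels per kb were lower where more was shared, with a median of 974 CPM per kb for 14 genes with under 10% shared windows and 116 CPM per kb for 24 genes with over 50% in Gata3-GFP+ ECs, and a Spearman rho between -0.65 and -0.63 over 77 genes in each population, so the order of levels between members is uncertain. The direction between pools was the same with and without sharing. All 7 tested members without any shared window fell in ECs (median -0.68), and of the 24 with over 50% shared 23 fell (median -0.55). In HCs 7 of 8 and 17 of 24 fell. The rows of ribosomal protein pseudogenes, which can hold reads of their parent genes, fell in 112 of 190 cases in ECs and 58 of 199 in HCs, with medians of -0.60 and -0.28. Of all genes tested, 16.7% fell in ECs and 9.51% in HCs.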

How the data were processed

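The authors deposited raw counts of reads per gene, with 92 ERCC rows and 5 HTSeq status rows, for 160 pools. The submitters' processing notes name GSNAP 2015-09-29 and HTSeq 0.5.3p3 on mm10, while the study's methods name STAR, so the aligner is uncertain. Strand settings are not given in the sources used here. Of all reads 11.8% had no feature, 15.9% were ambiguous and 22.6% were not aligned. Status rows were left out, and all sample columns were used. Symbols came from GENCODE M21, which held 45229 of the 46078 IDs. Columns were assigned to groups by name. Pools passed with over 500000 reads on genes and ERCC, over 20% of reads on genes, and under 20% mitochondrial and under 20% ERCC reads, the study's limits.

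Each comparison was fitted in edgeR 4.0.16 (R 4.3.3) by the quasi-likelihood F test with TMM scaling on genes reaching 10 counts in 5 pools or more, and adjusted p-values (Benjamini-Hochberg) ran over all genes tested. The GFP comparisons held the pools of 1 cell type, the others the 4 populations of 1 stage. SE is the log2 fold change over the root of F. CPM uses TMM factors. Ratios had a pseudocount of 0.5. The fit was tested on simulated data. Alternatives were ERCC, DESeq2 (1.42.0) or library-total scaling, TMM without the members, other filters, all pools, 1 fit for 4 populations, DESeq2's Wald test, the study's scanpy test (scanpy 1.11.5, scran 1.30.0) and an adjusted p of 0.05. Leaving out pools by their markers, the paralogue ratios and the contrasts within a GFP class were added after the data were seen. The marker limit there was 1000 CPM. The members and lists were chosen with earlier results of these data known. Named genes were the paralogue pairs, a fixed set with known phenotypes (Rps19, Rpl5, Rpl11, Rpl38, Rpl10a, Rpsa and the stalk), the 3 largest changes per direction that reached 10 counts in 75% of pools on the higher side, and a fixed set of other ribosome genes. Other members named, such as Rpl6, Rpl8, Rpl9, Rpl10, Rpl13a, Rpl14, Rpl17, Rpl18, Rpl26 and Rpl41, were picked after their values were seen. Snhg1 and Riok2 of the lists have no row in the table. Protein sequences were not used here. Some genes are not reported here.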

Additional observations from a re-analysis of the deposited data

Results flagged for a closer look

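The effect of the GFP class on single members differed between cell types by the interaction test in 17 of the named cases. Between HCs and ECs the difference in log2 fold change (HC minus EC) was 0.80 for Rps2, 0.59 for Rpl7l1, 0.56 for Rpsa, 0.56 for Rpl12 and 0.53 for Rpl27. It was 0.48 for Rplp0, 0.46 for Rps27l, 0.43 for Rps4x, 0.43 for Rplp2, 0.37 for Rpl39, 0.36 for Rpl7, 0.36 for Rplp1, 0.35 for Rpl22, 0.34 for Rpl10a and 0.33 for Rpl38. For Rps27 it was -0.44, opposite in sign to the other 15, but 0.15 under ERCC scaling. Between SNS and MC pools the difference for Rps27 was -0.35, and 0.01 under ERCC scaling. Without the pools that went against their label the adjusted p of this last difference was 0.0188, so the call was lost.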

How the results depend on the processing

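Of the values that answer a comparison, 171 were the same under the alternatives run, 26 moved and 1 newly passed its threshold, and for single named genes 2592 values kept their side of the threshold, 96 passed it, 53 lost it and 19 turned sign with a call on either side. The EC count stayed between 78 and 80 members. Under ERCC scaling (and without the pools with other markers as well) the counts were 23 (25) in HCs, 80 (80) for SNS against MC, 77 (77) for HC minus EC, and 3 (4) for GFP- HC against GFP- EC. ERCC scaling alone gave 0 for SNS minus MC, and without those pools 14 in SNS, all higher. Leaving out the pools with TMM scaling gave 3 in MCs and 7 in SNS. An adjusted p of 0.05 gave 2 in MCs, 3 in SNS, 12 for SNS minus MC and 29 for GFP- HC against GFP- EC. In SNS 1 fit gave 1, DESeq2's Wald test 2 and the study's test 2. No filter gave 21 for HC minus EC, and library totals 1 for SNS minus MC. No share of all genes is set beside the counts in brackets or those from the adjusted p of 0.05 on. These counts are therefore not read against it. The cause of these moves was not tested.

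The log2 difference of the summed members was -1.31 in ECs and 0.22 in SNS per ERCC count. Without mitochondrial genes in the total the shares were 5.32% in GFP- HCs, 3.65% in GFP+ MCs and 3.73% in GFP- MCs. With all pools the Rps27l to Rps27 ratio in SNS differed by 0.37. Those 19 values turned under ERCC scaling, to -0.48 (-0.46 without the pools with other markers) for Rps27 in ECs, to 0.39 (0.41) for Rpl7, 0.17 (0.18) for Rps27 and 0.15 (0.16) for Tpt1 in HCs against ECs, and to 0.37 (0.52) for Rpl10, 0.47 (0.63) for Rps19 and 0.46 (0.69) for Eef1a1 in SNS against MCs. In SNS, without those pools, the values called were 0.43 for Rpl10a, 0.42 for Rpl3, 0.42 for Rplp0, 0.40 for Eef1b2 and 0.47 for Eef2. Signs of values with no call also turned, such as Larp1 in ECs and Tpt1 in HCs under ERCC scaling.

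No paired analysis was possible because the count columns of a population share 1 name and carry no pool number, so the planned replicate block was not run. With 17 to 20 pools a group, leaving out single pools was not planned. Depth limited Rpl39l, Rpl3l, Rpl10l and Rpl23a, with few counts in most pools.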
